A study of Homo sapiens with 4 samples.

Results

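Binding of GATA3 was examined at 7 genes for transcription factors of lateral and cardiac mesoderm: ISL1, NKX2-5, HAND1, HAND2, TCF21, MEF2C and BNC2. The genes were chosen by name, out of 20033 protein-coding genes in the GENCODE annotation of hg38. All peak positions of either replicate were taken that lay within 100 kb of the 5′ end of a gene, inside its body, or that carried its exact symbol in the deposited list. This gave 26 of 18456 positions on chromosomes in replicate 1 and 20 of 12782 in replicate 2. A position of replicate 1 and one of replicate 2 that were no more than 100 bp apart were counted as 1 shared region, and 13 of the 9145 shared regions belonged to these genes.

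The cells were H1 hESCs, an established pluripotent line with no genetic change given in the labels, grown in mTeSR1 on Matrigel. All 4 samples had received BMP4 at 50 ng/ml for 6 h. They were 2 GATA3 ChIP replicates (antibody ab199428) and 2 matched input chromatin samples. Each ChIP replicate had a list of single positions without height, width or score, so read depth behind a position is unknown. An untreated GATA3 ChIP was not analysed here, and no test between conditions could be made. The methods call the replicates biological, and the labels do not say whether they came from separate cultures. The values below describe these libraries, and differences in number between genes were not tested.

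BMP signals help to set lateral mesoderm apart from the rest of the mesoderm, and the heart forms from part of it. ISL1, a LIM homeodomain protein, marks progenitors of the second heart field, and the homeodomain protein NKX2-5 is a core regulator of cardiac progenitors. HAND1 and HAND2 are basic helix-loop-helix factors needed for the ventricles, and TCF21, of the same class, marks epicardial and other mesenchymal progenitors. MEF2C is a MADS-box factor that activates cardiac muscle genes, and BNC2 is a zinc finger protein of mesenchymal cells. GATA proteins recognise WGATAR, which stands for the letters GATA after A or T and before A or G, such as AGATAA, on either strand. GATA factors work together with several of these regulators in the heart.

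Of the 7 genes, 4 had at least 1 shared region: ISL1 and BNC2 with 4 each, NKX2-5 with 3 and TCF21 with 2. HAND1, HAND2 and MEF2C had none. At least 1 shared region was found at 47.5% of all protein-coding genes, so a count of 4 in 7 is no result about these genes. The places of the regions also differed between genes, in part through the rule. Beyond 100 kb from the 5′ end, regions counted only inside the gene body or by name. The search covered 561 kb for BNC2 and 200 kb for ISL1, so their counts and distances are not like for like. ISL1 had a region at its 5′ end and NKX2-5 had one 3.11 kb upstream. Both regions of TCF21 were over 70 kb downstream, next to other genes, and those of BNC2 were all in introns at least 144.84 kb from its 5′ end.

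**Figure D1:**
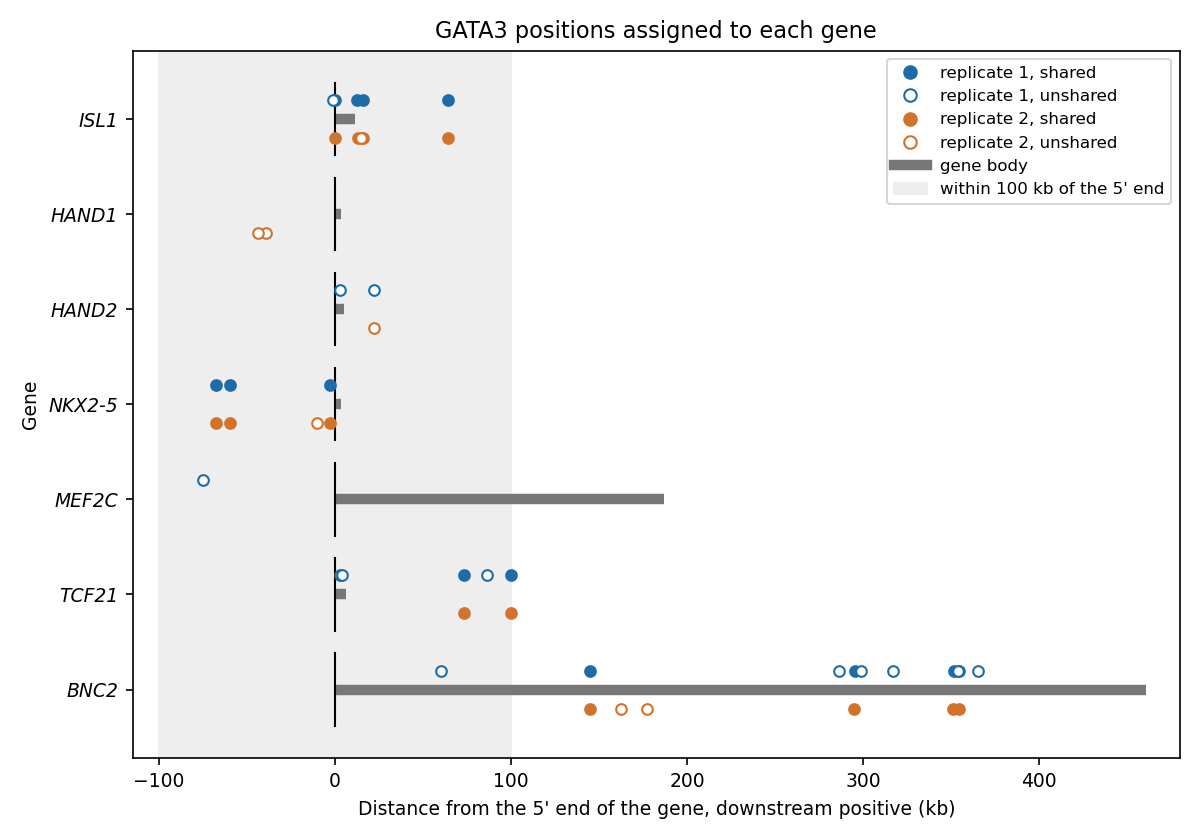
Positions of replicate 1 (blue) and replicate 2 (orange) are drawn by their distance in kb from the 5′ end of each gene, with filled circles for shared and open circles for unshared positions, a dark bar for the gene body and grey shading for the 100 kb on each side. Shared positions stand at or near the 5′ end only in ISL1 and NKX2-5, HAND1, HAND2 and MEF2C have open circles only, and the filled circles of BNC2 lie inside its gene body between 144.84 and 354.62 kb. Circles of neighbouring positions overlap in ISL1, TCF21 and BNC2.

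ISL1 lies on the plus strand at chr5:51383448-51394730. Each replicate had 5 positions there and 4 of the 5 were shared. At the promoter, replicate 1 had its position at 51383362, 86 bp upstream of the 5′ end, and replicate 2 at 51383455, 7 bp into exon 1. The pair stood 93 bp apart, just inside the limit of 100 bp, and only 1.56% of all shared regions had a gap as wide. With a limit of 50 bp it was not counted as shared, nor was the region at 12.70 kb described further on. A shared region within 1 kb of the 5′ end was found at 2.42% of protein-coding genes. Its centre fell between ISL1 and the long noncoding RNA ISL1-DT upstream.

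The 250 bases before the 5′ end of ISL1 are shown because they hold both GATA sites near the promoter positions. The sequence is RefSeq's promoter entry (GRCh38.p14) up to the last base before the gene, on the plus strand, with WGATAR matches in capitals.
ISL1 promoter, chr5:51383198-51383447: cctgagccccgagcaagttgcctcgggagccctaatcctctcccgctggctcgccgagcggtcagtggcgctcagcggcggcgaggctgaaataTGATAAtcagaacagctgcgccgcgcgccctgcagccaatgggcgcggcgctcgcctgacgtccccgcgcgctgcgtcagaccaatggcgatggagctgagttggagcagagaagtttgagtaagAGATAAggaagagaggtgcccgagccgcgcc
The AGATAA (51383417 to 51383422) lay between the replicate positions, 57.5 bp from that of replicate 1 and 35.5 bp from that of replicate 2. The TGATAA (51383292 to 51383297) lay farther upstream, 67.5 bp from replicate 1 and 160.5 bp from replicate 2. Of all 35116 promoter windows in the RefSeq table, 25.0% held a WGATAR. So did windows of HAND2 (2 sites), TCF21 (1 site) and MEF2C (4 of its 7 windows), none of which had a shared region at its 5′ end, while those of HAND1 and BNC2 held none. Around the centre of the region, 200 bp had a GC content of 67.5% and 26 CpG dinucleotides. A GC content that high was found at 1.06% of shared regions, and as many CpGs at 6 of the 9145. These ranks are among shared regions wherever they lie, not among promoters. The RefSeq promoter windows had a GC content of 66.7% for ISL1, 72.3% for BNC2, 66.0% for HAND1, 54.7% for TCF21 and 50.3% for HAND2. Those of MEF2C ran from 28.7 to 64.7%.

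**Figure D2:**
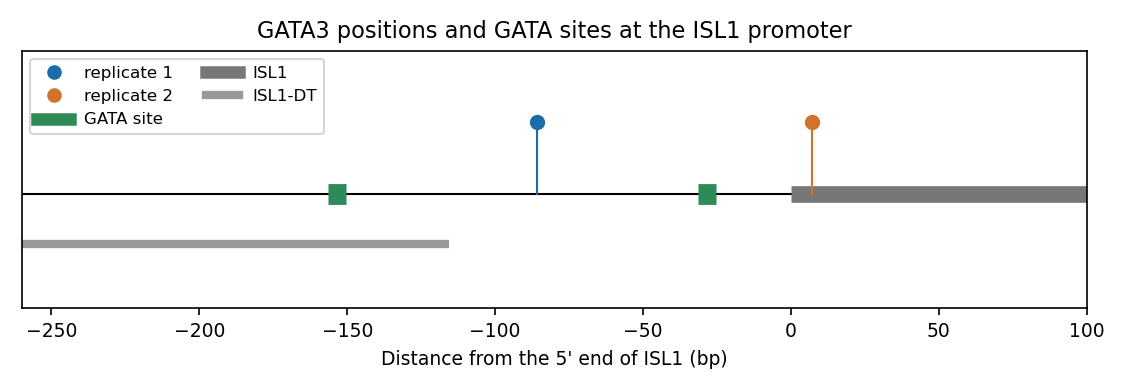
The horizontal axis gives the distance from the 5′ end of ISL1 in bp, with the positions of replicate 1 (blue) and replicate 2 (orange) as pins, WGATAR sites in green, ISL1 as a dark bar and ISL1-DT as a light bar. The site at -31 bp stands between the pins, and the other, at -156 bp, is upstream of both.

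The 3 distal regions of ISL1 were 12.70, 15.80 and 64.14 kb downstream of its 5′ end, all beyond the 3′ end of the gene. The region at 12.70 kb was at 51396117 in replicate 1 and 51396185 in replicate 2, in intergenic sequence. That at 15.80 kb was at 51399248 and 51399245, so the replicates differed by 3 bp. The region at 64.14 kb was at 51447582 and 51447602, in intron 3 of the long noncoding RNA ENSG00000288035. For all 3, ISL1 had the nearest protein-coding 5′ end, in a stretch of 1941 kb without another protein-coding gene. The unshared positions of ISL1 were close to shared ones: replicate 1 had 51381973, 1475 bp upstream of the gene, and replicate 2 had 51398249, 14.80 kb downstream, between the regions at 12.70 and 15.80 kb.

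Stretches of the distal ISL1 regions are shown for their GATA sites (hg38, plus strand, WGATAR in capitals). The stretch at 15.80 kb is shorter and shifted upstream to include its site, while the others are centred on their regions.
ISL1 12.70 kb downstream, chr5:51396111-51396191: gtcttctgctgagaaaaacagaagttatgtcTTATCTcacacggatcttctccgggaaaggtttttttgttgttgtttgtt
ISL1 15.80 kb downstream, chr5:51399192-51399249: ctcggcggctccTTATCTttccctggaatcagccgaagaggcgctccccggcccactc
ISL1 64.14 kb downstream, chr5:51447552-51447632: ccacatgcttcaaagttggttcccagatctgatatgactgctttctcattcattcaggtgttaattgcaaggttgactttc
The nearer pair each held 1 AGATAA, read on the minus strand, at 6.5 bp and 40 bp from the region centre. The 64.14 kb region was the only one of the 13 without a WGATAR within 100 bp. It is AT-rich, with a GC content of 39.0%, whereas the 15.80 kb region had 60.5% and 18 CpGs. With 4 shared regions within 100 kb, ISL1 stood among 1.07% of protein-coding genes with 4 or more.

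NKX2-5 lies on the minus strand at chr5:173232109-173235311. It had 3 positions in replicate 1, all of them shared, and 4 in replicate 2, of which 3 were shared. The region nearest to the gene was at 173238438 in replicate 1 and 173238406 in replicate 2, 3.11 kb upstream of the 5′ end. The other shared regions were 59.54 and 67.67 kb upstream, where STC2, a gene for a secreted glycoprotein, has the nearer 5′ end at 33.6 and 25.5 kb. Replicate 2 alone had 173245746, 10.44 kb upstream. Within 100 kb, 4.18% of protein-coding genes had 3 or more shared regions.

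Sequences of the NKX2-5 regions are shown for the spacing of their GATA sites (hg38, minus strand as the gene is read, WGATAR in capitals).
NKX2-5 3.11 kb upstream, chr5:173238382-173238462: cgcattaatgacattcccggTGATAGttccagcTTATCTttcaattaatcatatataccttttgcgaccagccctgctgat
NKX2-5 59.54 kb upstream, chr5:173294754-173294776: gcccccTTATCTGATAGcctgta
NKX2-5 67.67 kb upstream, chr5:173302944-173303024: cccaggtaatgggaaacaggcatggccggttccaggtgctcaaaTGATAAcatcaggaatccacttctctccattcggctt
Within its 200 bp window the 3.11 kb region held 3 sites, 2 of them in the stretch shown and the nearest 4.5 bp from the centre. At 59.54 kb the 2 sites overlap by a base on opposite strands and stood 81 and 86 bp from the centre, the farthest nearest site among the 12 regions that held one. The 67.67 kb region had a TGATAA 7 bp from its centre and a further site 51 bp away. The 3.11 kb region had 15 CpGs in 200 bp.

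HAND1 lies on the minus strand at chr5:154474972-154478227. Replicate 1 had no position within 100 kb, and replicate 2 had 2, at 154517381 and 154521840, 39.15 and 43.61 kb upstream. The nearest position of replicate 1 to them was 86731 and 82272 bp away. The nearest WGATAR was 26.5 bp from the former and 15.5 bp from the latter. Of all protein-coding genes, 0.384% had 2 or more positions of replicate 2 and none of replicate 1 within 100 kb, a combination singled out after the values of HAND1 were seen. The nearest shared region, 125.90 kb upstream, was outside the window.

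HAND2 lies on the minus strand at chr4:173524969-173530229. Downstream of its 3′ end, replicate 1 had a position at 173508196 and replicate 2 at 173508325, 22.03 and 21.90 kb from the 5′ end. They stood 129 bp apart and were therefore not counted as shared. Both fall in exon 1 of the long noncoding RNA ENSG00000286039. Replicate 1 had a further position at 173527743, in intron 1 of HAND2 and in an exon of the antisense HAND2-AS1, with no WGATAR within 100 bp and 19418 bp from the nearest position of replicate 2. The bases between the downstream pair are shown because they hold the GATA sites of both positions (hg38, minus strand, WGATAR in capitals).
HAND2 21.97 kb downstream, chr4:173508185-173508335: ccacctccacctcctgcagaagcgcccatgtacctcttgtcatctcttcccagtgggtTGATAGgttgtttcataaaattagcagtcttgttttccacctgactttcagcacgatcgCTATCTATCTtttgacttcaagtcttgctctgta
The nearest shared region was 283.00 kb away, downstream. The window of replicate 1 held 3 WGATAR sites, the nearest 15.5 bp away, and that of replicate 2 held 1, at 50.5 bp. The CTATCTATCT counts as 2 overlapping sites.

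TCF21 lies on the plus strand at chr6:133889113-133895553, with 5 positions in replicate 1 and 2 in replicate 2. The positions nearest to the gene were seen in replicate 1 only, at 133891611 in intron 1 and at 133892818, also inside the gene, 2.50 and 3.71 kb downstream of the 5′ end. Each had 1 WGATAR within 100 bp, and the nearest position of replicate 2 was 70623 and 69416 bp away. Its shared regions lay in the neighbouring gene TBPL1, which encodes a relative of the TATA-binding protein. The region 73.11 kb downstream (133962220 and 133962234) was in intron 1 of TBPL1. That at 99.89 kb (133988982 and 133989017) was in untranslated sequence where exon 7 of TBPL1 and exon 5 of the glucose transporter gene SLC2A12 overlap.

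The latter was also the region closest to the edge of the 100 kb window. Its positions were 99.87 and 99.90 kb from the 5′ end of TCF21, and the nearest position left out at any of the 7 genes was that of HAND1 in replicate 2, 105.90 kb upstream. The paired GATA sites of both TCF21 regions are shown (hg38, plus strand, WGATAR in capitals).
TCF21 73.11 kb downstream, chr6:133962249-133962298: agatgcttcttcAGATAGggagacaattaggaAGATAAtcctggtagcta
TCF21 99.89 kb downstream, chr6:133989012-133989033: AGATAAtcgaagtgctTTATCT
In the first sequence the sites point the same way, 36.5 and 56.5 bp from the centre. In the other, 2 AGATAA face each other from opposite strands at 15 and 31 bp.

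MEF2C lies on the minus strand at chr5:88717117-88904257, and its canonical transcript begins 21073 bp inside the 5′ end of the gene. There was 1 position, 88979280 in replicate 1, 75.02 kb upstream in intron 3 of MEF2C-AS1. It had no WGATAR within 100 bp, and the nearest position of replicate 2 was 290651 bp away. The gene body of 187 kb held no position of either replicate, as did 28.9% of protein-coding genes of 150 to 250 kb. The nearest shared region was 215.64 kb from the 5′ end, 28.5 kb beyond the 3′ end.

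BNC2 spans 461 kb on the minus strand at chr9:16409503-16870843. It had 10 positions in replicate 1 and 6 in replicate 2, all inside the gene body, and 4 shared regions. The shared regions were 144.87 kb (intron 3), 295.17 kb (intron 4), 351.42 kb and 354.60 kb (both intron 5) from the 5′ end. None lay within 100 kb of it, and the nearest position of any kind was 16810513 in replicate 1, 60.33 kb inside the gene. Between 286.58 and 365.52 kb stood 8 of the 10 positions of replicate 1, and 3 of the 6 of replicate 2 were in the same stretch. Its limits are the first and last of these 8 positions, so the stretch was drawn from the values themselves. Among genes of at least 400 kb, 20.9% had 4 or more shared regions in the body. The density in BNC2 was 8.67 per Mb, against a median of 2.74 over these 511 genes. Over the 1073 kb between its neighbours CCDC171 and CNTLN, which hold the same 4 regions, it was 3.73 per Mb, and 2.96 per Mb over the chromosomes.

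Of the BNC2 regions, those with 3 GATA sites each are shown (hg38, minus strand, WGATAR in capitals).
BNC2 144.87 kb downstream, chr9:16725895-16725940: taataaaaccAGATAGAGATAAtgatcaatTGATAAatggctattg
BNC2 351.42 kb downstream, chr9:16519386-16519466: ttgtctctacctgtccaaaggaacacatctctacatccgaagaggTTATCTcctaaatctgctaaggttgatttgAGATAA
At 144.87 kb the sites were 47, 53 and 67 bp from the centre (replicate positions 16725947 and 16726002), and AGATAG and AGATAA stood end to end. At 351.42 kb (16519387 and 16519465.5) they were at 7.75, 37.75 and 55.75 bp, the last outside the stretch shown.

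Over the 7 genes, 13 of 26 positions of replicate 1 were shared (50.0%, 95% Wilson CI 32.1 to 67.9), close to the 49.6% over all its positions on chromosomes. In replicate 2 it was 13 of 20 (65.0%, CI 43.3 to 81.9), against 71.5%. The intervals cover counting error only and positions of 1 gene are not independent of each other. The replicate positions within a region were a median of 35 bp apart, from 3 to 93 bp, and 23 bp over all shared regions. The unshared positions were 13 in replicate 1 and 7 in replicate 2. HAND1 and NKX2-5 had unshared positions in replicate 2 only, MEF2C and TCF21 in replicate 1 only, and ISL1, HAND2 and BNC2 in both.

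WGATAR was within 100 bp of the centre in 12 of the 13 shared regions (92.3%, CI 66.7 to 98.6), against 82.0% of all shared regions. At unshared positions it was in 8 of 13 windows of replicate 1 (61.5%, CI 35.5 to 82.3) and in 7 of 7 of replicate 2 (100%, CI 64.6 to 100). No share over all unshared positions is given here, so these values are no result about these genes. The 13 regions held 22 sites, a mean of 1.69 per region against 1.31 in all shared regions. AGATAA made up 13 of the 22 (59.1%), against 48.3% of the 11955 sites in all regions. The nearest site was a median of 24 bp from the centre, against 17.5 bp. Regions with 2 or more sites were 53.8% here and 34.6% over all. These shares rest on 13 regions and their differences were not tested.

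**Figure D3:**
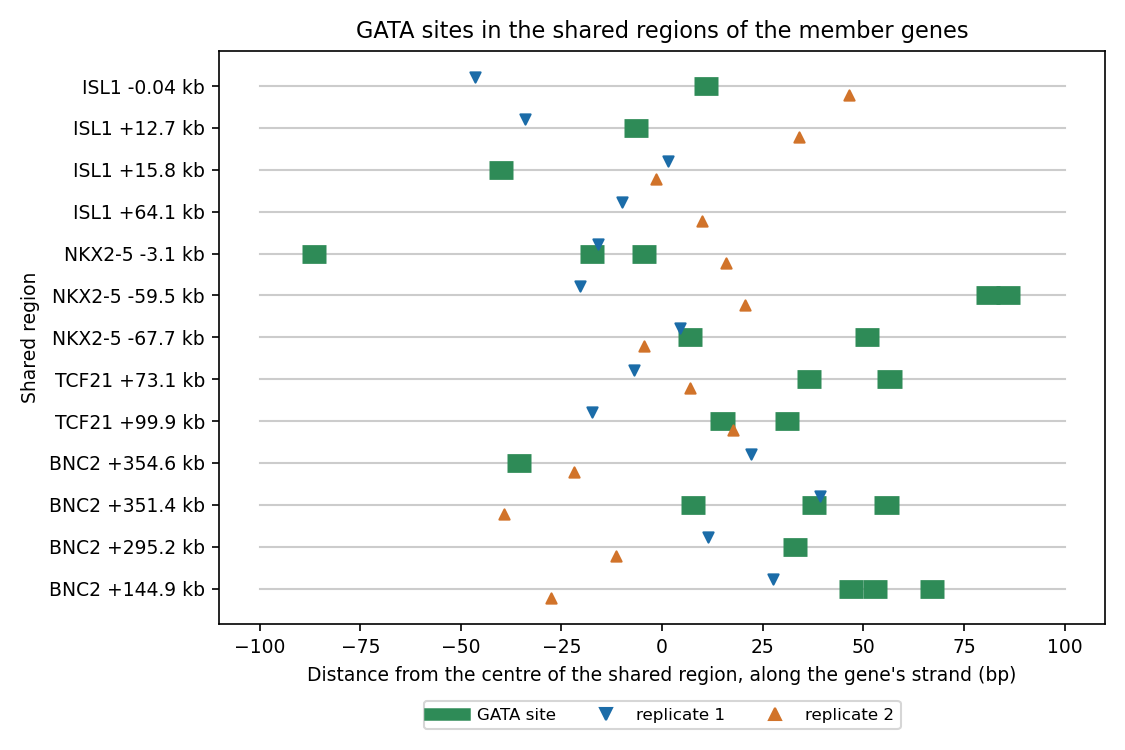
Each row is 1 of the 13 shared regions, named by its gene and its distance from the 5′ end, and the axis gives the distance from the region's centre in bp along the strand of the gene. Green blocks are WGATAR sites and triangles the positions of replicate 1 (blue) and replicate 2 (orange). A block is within 100 bp in every row except ISL1 at +64.1 kb, and the rows of NKX2-5 at -3.1 kb and BNC2 at +351.4 and +144.9 kb have 3.

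Other recognition sequences were searched on both strands in the same windows. The SMAD element GTCTG was in 4 of 13 regions (30.8%), against 36.1% of all shared regions, and the TEAD sequence GGAATG in 3 (23.1%, against 18.9%). The T-box sequence AGGTGT was in 2 (15.4%, against 8.84%). The octamer ATGCAAAT of POU factors (5.08% of all), the NK-2 homeodomain sequence TNAAGTG (10.1%), the AP-1 sequence TGANTCA (8.87%) and the SMAD sequence GGCGCC (1.96%) were in none, and with 13 regions the upper limit of the interval is 22.8%. The reversed GATA control, the letters ATAG after A or G and before A or T, which can overlap a WGATAR that ends in G, was in 4 (30.8%, against 32.6%). CpGs numbered a median of 3 per region here and 2 over all. More than 6 CpGs were found in 7.65% of all shared regions and in 3 of the 13: the ISL1 promoter, ISL1 at 15.80 kb and NKX2-5 at 3.11 kb.

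The gene names in the deposited lists covered few of these positions. The exact symbol of a member stood beside 3 of 26 positions in replicate 1 and 3 of 20 in replicate 2, for ISL1, NKX2-5 and MEF2C. At the ISL1 promoter the name was ISL1 in replicate 2 but another, clone-based name in replicate 1. The positions in BNC2 carried clone-based names or LSM1P1, and all 3 of HAND2 the name HAND2-AS1. By distance to 5′ ends, the member was the nearest protein-coding gene for 9 of the 13 shared regions. The exceptions were both regions of TCF21 and the NKX2-5 regions at 59.54 and 67.67 kb. No share over all genes is given here, so this count is no result about these genes. It depends on the layout of the genes and on the rule. ISL1 has no protein-coding neighbour in 1941 kb, and the BNC2 regions were taken because they lie in its body.

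**Figure D4:**
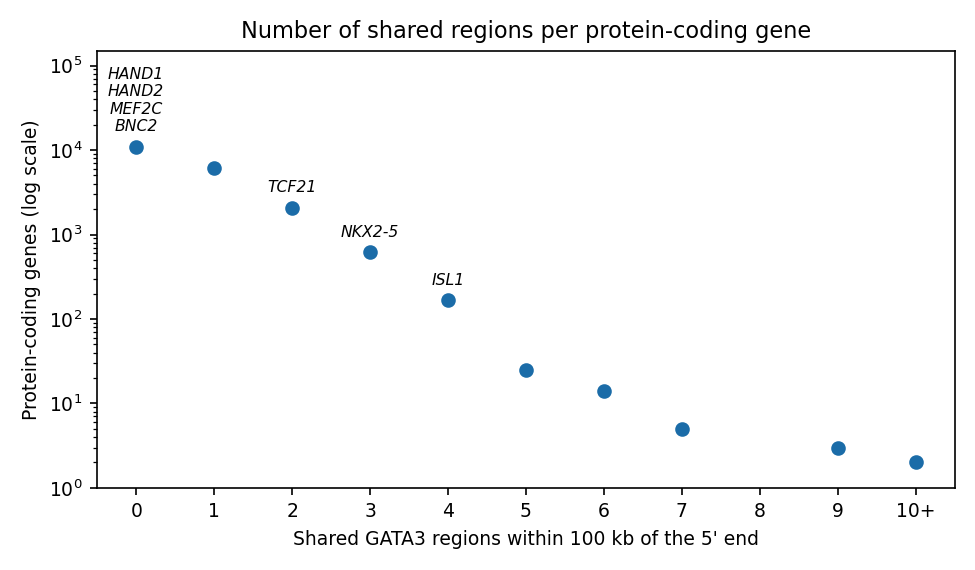
The number of protein-coding genes (log scale) is plotted against the number of shared regions within 100 kb of the 5′ end, with 10 or more joined, and the 7 genes are written at their counts. ISL1 stands at 4, NKX2-5 at 3 and TCF21 at 2, and HAND1, HAND2, MEF2C and BNC2 are among the 11018 genes with 0.

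A list of 35 further regulators of cardiac and lateral mesoderm was examined in the same way. It was chosen with earlier results of these data known, so its shares cannot show an excess over all genes. Their differences from the shares of all genes were not tested. Of these, 24 (68.6%) had a shared region within 100 kb or in the gene body, with a median of 1 region and at most 4, beside 47.5% for all protein-coding genes. A shared region within 10 kb of the 5′ end was found at 9 of the 35, and at 8.69% of all protein-coding genes. Among the 9 were TBX3 (0.29 kb upstream), GATA6 (0.35 kb downstream), BNC1 (1.72 kb upstream), MEIS1 (2.35 kb upstream), FOXC1 (3.86 kb downstream), ISL2 (6.38 kb downstream), TEAD1 (6.48 kb downstream) and TBX2 (6.83 kb downstream). The relatives of the members differed. ISL2, the paralogue of ISL1, had 3 shared regions, all within 10 kb of its 5′ end, and BNC1, the paralogue of BNC2, had 1. MEF2A and MEF2D had 1 each, at 32.04 and 61.50 kb, and MEF2B and NKX2-6 had none. MESP1 and MESP2, neighbouring genes for early cardiac mesoderm factors, shared the same region.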

How the data were processed

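GATA3 ChIP and input chromatin from BMP4-treated H1 hESCs were sequenced. According to the methods and labels, the authors trimmed reads (cutadapt), aligned them to hg38 (Bowtie), removed duplicates (Picard), multiply mapped reads and blacklisted regions, and called peaks per replicate with MACS2, using the matched input as control. The deposited files give 1 position and a gene name per peak; how these were chosen, and whether bases count from 0 or 1, is not given in the sources used here. Positions were read as counted from 1, and the reads behind each position are unknown.

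The lists held 18538 and 12865 distinct positions, other numbers than the peaks the methods state, for a reason not given there. Those on the 24 chromosomes all fell inside hg38 sequence. Replicate positions up to 100 bp apart were linked into shared regions centred on their mean. Genes, 5′ ends and exons came from GENCODE 44. Motifs were counted in 200 bp windows. The named genes are all 7 members, plus those of the 35 further regulators with a region within 10 kb, of which 1 is not reported here. Paralogues and zero counts outside that rule were named after their values were seen. Members and lists were chosen with earlier results of these data known. Python 3.11.15, pysam 0.24.0, numpy 2.4.6 and scipy 1.17.1 were used, and linking and motif search were checked on simulated data. Tracks and input files were not analysed here.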

Additional observations from a re-analysis of the deposited data

How the results depend on the processing

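No paired analysis was possible because the input samples have no file analysed here and no test compares groups. With a gene window of 10, 50 or 250 kb the shared regions numbered 7, 8 and 23, and the median per gene 0, 0 and 4. By the authors' names alone there were 3 regions at 2 genes, a median of 0, and 100% of the named positions of replicate 2 were shared. Taking 1 replicate alone gave 20 to 26 positions at 6 genes, and the median distance to the nearest one was 3.13 to 39.2 kb, against 126 kb for shared regions. Sharing within 250 or 500 bp added the HAND2 pair, which brought that median to 73.1 kb in each case. At 50 bp, ISL1 kept 2 regions and lost its promoter, so that its nearest shared region was 15.80 kb away, and BNC2 kept 2. Windows of 400 bp put WGATAR at 100% of the 13 regions. A wider window can only raise such a share, and none over all shared regions is given here at that width. Of the further regulators 15 had a region within 10 kb or in the gene body. In the other cases the totals stayed within 1.5 times or inside their interval. Over all settings, those described above included, 32 values of single genes moved and 87 did not. The lists carry no depth or score, so a gene with no position may have had binding below the authors' threshold.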

Other observations

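The stretches beyond 100 kb, up to the next protein-coding genes, were examined after the values above were known. MEF2C has the widest of the 7, 2123 kb between TMEM161B and CETN3. It held 9 shared regions, 4.24 per Mb against 2.96 per Mb over the chromosomes, and none nearer than 215.64 kb to the 5′ end. Downstream of MEF2C, 4 of them (215.64, 225.98, 239.52 and 244.15 kb) lay close together, around 88688614, 88678254, 88664758 and 88660104 in replicate 1. The other 5 were at least 510.92 kb from the 5′ end of MEF2C. ISL1 sits in 1941 kb between PARP8 and PELO, with 7 shared regions: the 4 described above and others at 473.12, 580.89 and 778.68 kb downstream. HAND2 had 3 in 830 kb, all between 606.06 and 688.27 kb upstream. HAND1 had 1 in 222 kb, at 125.90 kb upstream. TCF21 had 2 in 420 kb, 120.26 and 173.31 kb upstream, on the side away from TBPL1. NKX2-5 had the highest density, 3 in 150 kb, and each is described above.

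The study tested GATA3 at ISL1 by ChIP-qPCR, with and without BMP4 for 6 h, with a primer pair named for the ISL1 promoter. It reports early binding of GATA3 at promoters of differentiation genes after BMP4, with ISL1 among them. Both primers, whose letters were read from page images, match the hg38 chromosomes exactly and once each, and enclose chr5:51399127-51399232, 106 bp. This is 15.68 to 15.78 kb downstream of the 5′ end of ISL1. It covers the AGATAA of the region at 15.80 kb, and the positions of both replicates lay just past its end. The region at the ISL1 promoter itself is outside the amplicon.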
